A study of Homo sapiens with 6 samples.

Results

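The ATF4 axis is the set of stress-responsive transcription factors around activating transcription factor 4 and the effector genes they control. It was read here through 10 genes picked by symbol from the table of all genes: the factors ATF4, ATF5, ATF3, DDIT3, CEBPB and CEBPG, and the effectors TRIB3, CHAC1, DDIT4 and SESN2. All 10 were found, each as 1 row at 1 genome position, among 26391 rows, and all 10 were among the 16245 genes with enough reads to be tested.

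Polyadenylated RNA of HEK293T cells, which derive from human embryonic kidney and express the large T antigen of SV40, was sequenced. The cells, 50% confluent, received either a pool of 4 siRNAs against LOC550643 (LOC550643 siRNA, 3 libraries) or a non-silencing siRNA (control siRNA, 3 libraries), and RNA was taken 48 hours after transfection. LOC550643, now named NBDY, encodes a small polypeptide reported to bind the decapping scaffold EDC4, and the study asked whether steady-state RNA levels differ when it is silenced. All cells received the transfection reagent and an siRNA, and with 1 pool and 1 control siRNA, loss of the transcript and any other action of these siRNAs cannot be told apart.

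In the integrated stress response, kinases that sense amino acid shortage, misfolded protein in the endoplasmic reticulum, double-stranded RNA or haem shortage phosphorylate the translation factor eIF2. Most translation then falls, while ATF4 mRNA, whose upstream open reading frames otherwise keep it poorly translated, is translated more, and ATF4 protein binds C/EBP-ATF response elements (CAREs), often with a C/EBP protein as partner. ATF4 is thus known for control at the level of translation, and mRNA libraries do not measure its protein. Its known targets include ATF3, ATF5, DDIT3 (the factor CHOP), TRIB3, CHAC1, DDIT4 and SESN2, as well as genes for amino acid synthesis, amino acid import and tRNA charging.

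The libraries held 8604236 to 36082404 read pairs assigned to genes, the lowest number in LOC550643 siRNA replicate 3. Among the control libraries replicate 2 stood furthest from the others (chi-square of read pairs per degree of freedom 31.2 and 41.6, against 9.44 between replicates 1 and 3). The siRNA target, listed as LINC01420, fell in every LOC550643 siRNA library, from 52.9 ± 2.88 to 5.74 ± 0.292 CPM (read pairs per 1000000 assigned, after TMM scaling; SD, n = 3 each; log2 fold change -3.20, limma adjusted p = 6.91e-09). The HEK293 markers NEFL, NEFM, VIM, KRT8 and KRT18 were present in all libraries, and their summed level was 1020 to 1130 CPM in the controls and 1150 to 1270 CPM after LOC550643 siRNA, a difference whose part in the results was not tested. Markers of hepatocytes and endothelium summed to at most 0.435 and 0.136 CPM, and the leukocyte markers CD3E and PTPRC were at 0 in every LOC550643 siRNA library and at most 0.0269 and 0.0145 CPM in the controls. Of 5 fibroblast markers COL1A1 made up nearly all of the sum (61.1 to 69.8 CPM in control, 62.2 to 67.4 CPM in LOC550643 siRNA libraries), and COL1A2 was at 0 in all LOC550643 siRNA libraries.

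After LOC550643 siRNA, 8 of the 10 genes rose and none fell (limma, adjusted p under 0.05). In this transcriptome 17.5% of genes tested rose, 18.2% fell and 35.6% did either. The 10 were chosen with earlier results of these data known, so their counts beside these shares are a description and not a test. The largest rises were those of ATF5 and TRIB3, near 3-fold, followed by ATF3, DDIT3 and CEBPG, and then SESN2, CEBPB and DDIT4. ATF4 itself and CHAC1 did not pass. None of the 10 was lower at an unadjusted p under 0.05 in limma (0 genes), and edgeR and DESeq2 on the recovered reads also called 0 lower. The median log2 fold change of the 10 was 0.518, beside -0.0194 over all genes tested and 0.0783 over the 5873 genes whose mean level was at least that of the lowest of the 10 (47.8 CPM). Among those 5873 genes 29.4% rose and 13.6% fell. In 8 of the 10 every LOC550643 siRNA library lay above every control library, as was so for 23.7% of all genes tested, with 24.9% below. When libraries were scaled by their totals alone, 2081 genes rose and 3976 fell in place of 2837 and 2953, and the same counts of 8 and 0 were found among the 10. As whole wells were sequenced, a change in some of the cells and a smaller change in all of them cannot be told apart.

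**Figure D1:**
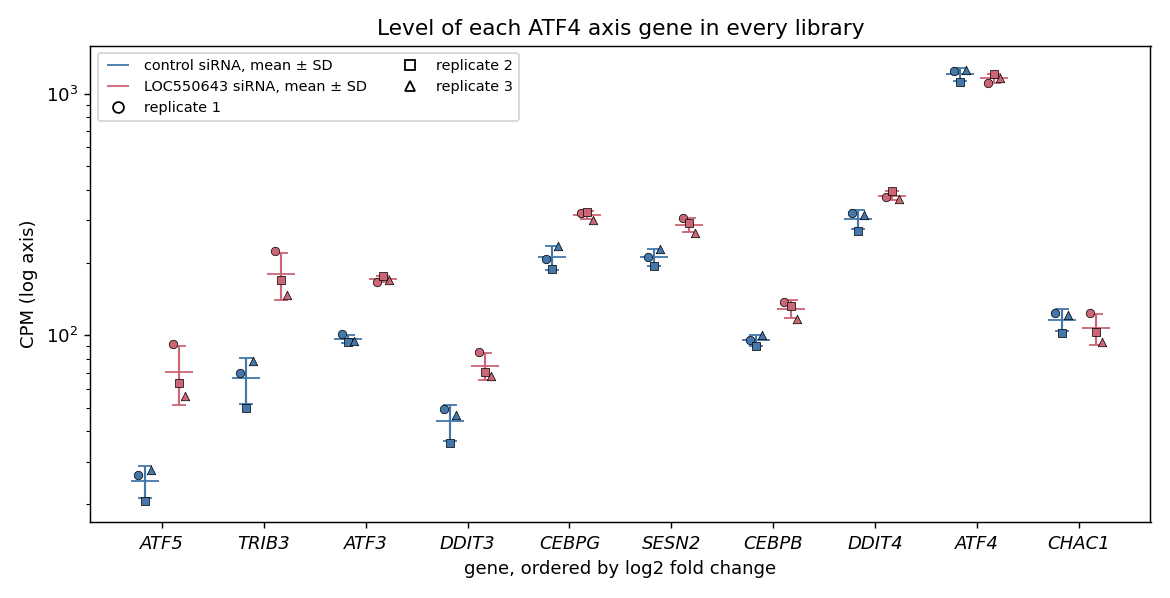
Level in CPM (log axis) of each of the 10 genes in every library, ordered by log2 fold change; points are single libraries, horizontal marks the group mean and bars the SD (n = 3). From ATF5 to DDIT4 the LOC550643 siRNA libraries lie above the control libraries, while for ATF4 and CHAC1 they overlap.

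Sequences near the starts of these genes are shown because several of the 10 are known targets of ATF4. ATF4 often binds with a C/EBP partner, and the windows show which genes carry an element of that kind. RefSeq promoter windows (GRCh38.p14, 250 bases before to 50 after a start) were matched for all 10 genes, 19 windows in all, and searched on both strands for 6 motifs. TGATGNAA, the core of the CARE, was found in windows of CEBPG, CHAC1 and ATF3, and in 3.62% of all 35116 windows (4.46% of 27305 genes). The AP-1 motif TGANTCA was found at ATF5 and DDIT3 (7.71% of all windows) and the E-box CACGTG at ATF4 (7.26%). The cAMP response element TGACGTCA (1.85% of windows), the C/EBP palindrome TTGCGCAA (0.151%) and the ER stress response element ERSE (CCAAT, any 9 bases, then CCACG; 0.0769%) were found in no window of the 10. No matches overlapped each other, and windows of TRIB3, CEBPB, DDIT4 and SESN2 held none of the 6. In the stretches of 80 bases below, written 5′ to 3′ on the gene's strand, capitals mark the motif. Positions are counted from the start of the window that holds the match. CEBPG, ATF3 and ATF5 also have windows at other starts, which held no match. The measured row of a gene need not begin at the start used here, and that of ATF5 begins upstream of its AP-1 match.
CEBPG, chr19:33374033-33374112, plus strand, CARE core at -42 from the start: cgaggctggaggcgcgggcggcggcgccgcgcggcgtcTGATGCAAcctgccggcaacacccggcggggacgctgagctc
CHAC1, chr15:40953226-40953305, plus strand, reverse complement of the CARE core at -209: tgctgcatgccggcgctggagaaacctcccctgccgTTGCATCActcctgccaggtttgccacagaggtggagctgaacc
ATF3, chr1:212565180-212565259, plus strand, CARE core at -191 from 1 of its alternative starts: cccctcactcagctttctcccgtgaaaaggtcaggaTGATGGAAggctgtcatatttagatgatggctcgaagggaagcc
ATF5, chr19:49928682-49928761, plus strand, AP-1 motif at -188: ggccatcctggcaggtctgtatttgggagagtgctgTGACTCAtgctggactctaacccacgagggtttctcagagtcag
DDIT3, chr12:57520685-57520764, minus strand, AP-1 motif at -241: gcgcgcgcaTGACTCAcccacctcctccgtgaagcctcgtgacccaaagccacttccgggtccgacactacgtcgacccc
ATF4, chr22:39520441-39520520, plus strand, E-box at -82: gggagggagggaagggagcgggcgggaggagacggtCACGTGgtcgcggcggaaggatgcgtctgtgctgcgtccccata
The 3 genes with a CARE core differed in their response to LOC550643 siRNA: CEBPG and ATF3 rose, and CHAC1 did not pass. The ATF3 window with the match begins at 212565157 and its other window at 212614768. They lie further apart than the measured ATF3 row is long (hg19, 212781970 to 212794119), so the row does not cover both starts. Whether transcripts from the start with the match rose was not tested. A match to these letters is a description of the window and does not show that a factor binds there. Bases outside the windows were not searched, so a window without a match does not show that the gene lacks such an element.

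ATF4, the factor at the head of the axis (hg19 chromosome 22, 39916564 to 39918691, plus strand), was the most abundant of the 10 per length of exon. Its level was 1248, 1116 and 1254 CPM in control replicates 1 to 3 and 1105, 1204 and 1166 CPM in LOC550643 siRNA replicates 1 to 3. The groups overlapped. Its log2 fold change, -0.06 with an SE of 0.0854, did not pass (limma adjusted p = 0.634), with a 95% interval of -0.244 to 0.130, which is 0.844 to 1.09 of the control level. The number of libraries therefore leaves room for a small change in either direction, but a rise of ATF4 mRNA as large as that of ATF3, DDIT3 or CEBPG lies outside this interval.

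ATF5, a close relative of ATF4 whose mRNA also carries upstream open reading frames, had the largest fold change of the 10. It stood at 26.4, 20.7 and 27.7 CPM in the control libraries and at 92.4, 63.7 and 55.9 CPM after LOC550643 siRNA. The lowest LOC550643 siRNA library was thus above the highest control library by a wide margin, although the LOC550643 siRNA libraries differed among themselves by 1.65-fold. The means were 24.9 ± 3.74 and 70.7 ± 19.2 CPM, 2.84 times the control level (log2 1.48, SE 0.165, 95% interval 1.12 to 1.84, limma adjusted p = 7.05e-05). Set against ATF4 in the same library, the log2 ratio of ATF5 to ATF4 was -5.57, -5.75 and -5.50 in control and -3.58, -4.24 and -4.38 in LOC550643 siRNA libraries. This ratio rose by 1.54 on the log2 scale, and the exact two-sided permutation test gave p = 0.1, the smallest that 3 against 3 libraries allow.

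ATF5 lies on the plus strand of chromosome 19, 50431959 to 50437193 (hg19), and other listed genes overlap it. IL4I1 and NUP62, on the opposite strand, share its first 838 and 830 bases, and the counting command shows no strand option. IL4I1 stood at 9.02 CPM in control and rose to 13.3 CPM (log2 0.55, limma adjusted p = 0.00438) and NUP62 went from 158.6 to 184.2 CPM (log2 0.21, limma adjusted p = 0.0287), in both cases by less than ATF5. In GENCODE 44 an unnamed gene on the opposite strand spans all 5235 bases of ATF5. What part the shared bases have in the ATF5 value was not tested.

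The microRNA gene MIR4751 lies inside ATF5 on the same strand, at 50436321 to 50436394, within exon 3. ATF5 coding sequence ends at 50436346 and the untranslated part of that exon begins at 50436347 (GENCODE 44 on GRCh37), so the row covers the end of the coding sequence. The mature microRNA (RefSeq, GRCh38.p14) is printed because the row named after its gene moved with ATF5. Capitals mark its seed, bases 2 to 8.
hsa-miR-4751: aGAGGACCcguagcugcuagaagg
The MIR4751 row stood at 0.544, 0.436 and 0.568 CPM in control and at 2.83, 1.53 and 1.19 CPM in LOC550643 siRNA libraries (log2 1.69, limma adjusted p = 0.00159), from 10 to 97 read pairs per library. Its libraries fell in the same order within each group as those of ATF5. Per kilobase of exon the row went from 7.07 CPM in the controls to 25.3 CPM, and ATF5 from 11.0 to 31.1 CPM. The row covers part of ATF5 exon 3, and polyadenylated RNA was sequenced. The rise of the row therefore cannot be read as a rise of the microRNA. Reads of the host mRNA and of the microRNA hairpin were not separated in this row, and a change of the microRNA itself was not tested.

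ATF3, an early-response factor of the same basic leucine zipper class (chromosome 1, 212781970 to 212794119, plus strand), rose with the least spread of the 8. Control libraries held 100.8, 93.9 and 94.9 CPM and LOC550643 siRNA libraries 166.6, 176.2 and 169.9 CPM. Every LOC550643 siRNA library was above every control library, and within each group the libraries differed by at most 1.07-fold. The level was 1.77 times that of the control (log2 0.82, SE 0.0656, 95% interval 0.680 to 0.968, limma adjusted p = 9.2e-06).

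DDIT3 encodes CHOP, a C/EBP family member known as the pro-apoptotic factor of prolonged ER stress (chromosome 12, 57910371 to 57914300, minus strand). It stood at 49.5, 35.7 and 47.0 CPM in control and at 85.4, 70.6 and 67.6 CPM in LOC550643 siRNA libraries. The groups did not overlap, and control replicate 2 was lower than the other controls. The rise was 1.69-fold (log2 0.77, SE 0.124, 95% interval 0.493 to 1.04, limma adjusted p = 0.000754). MARS, a tRNA synthetase gene on the opposite strand, shares 68 bases with DDIT3 in the deposited table and went up from 381.0 to 486.3 CPM (log2 0.35, limma adjusted p = 0.00803). MIR616, on the same strand inside DDIT3, had too few reads to be tested. In GENCODE 44 MARS shares 982 bases with DDIT3, and an unnamed gene on the same strand shares 2769 bases. What part the shared bases have in the DDIT3 value was not tested.

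CEBPG and CEBPB are C/EBP proteins that pair with ATF4. CEBPG (chromosome 19, 33864575 to 33873592, plus strand) stood at 207.2, 188.8 and 234.9 CPM in control and at 320.9, 323.0 and 300.6 CPM in LOC550643 siRNA libraries. Its groups were well apart, and the LOC550643 siRNA libraries were close together (log2 0.59, SE 0.0850, limma adjusted p = 0.000365). CEBPB (chromosome 20, 48807120 to 48809227, plus strand) rose from 95.8, 89.9 and 100.1 CPM to 137.5, 132.4 and 116.9 CPM (log2 0.43, SE 0.0790, limma adjusted p = 0.0015). Here the nearest libraries of both groups, LOC550643 siRNA replicate 3 and control replicate 3, were closer. CEBPB-AS1 on the opposite strand shares 1487 bases with CEBPB in the table and itself rose (31.5 CPM in control, 45.5 CPM after LOC550643 siRNA, log2 0.52, limma adjusted p = 0.00115), so reads of the pair may be mixed.

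Among the effectors, TRIB3 had the largest rise. It encodes a pseudokinase that binds AKT and, as part of a feedback loop, ATF4 (chromosome 20, 361273 to 378203, plus strand). The controls held 70.1, 50.2 and 78.5 CPM, and the LOC550643 siRNA libraries 223.2, 169.5 and 146.2 CPM. Both groups were wide, with highest over lowest library of 1.56 and 1.53, but they did not overlap. The rise was 2.71-fold (log2 1.44, SE 0.168, 95% interval 1.07 to 1.81, limma adjusted p = 9.42e-05).

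CHAC1, a glutathione-degrading enzyme often used as a readout of the ATF4 and CHOP branch, lies on chromosome 15, 41245636 to 41248717, plus strand. It stood at 124.0, 102.5 and 121.8 CPM in control and at 123.7, 103.2 and 93.4 CPM in LOC550643 siRNA libraries. The groups overlapped, and 1 library of each group lay at about 124 CPM. Its log2 fold change, -0.13 with an SE of 0.107, did not pass (limma adjusted p = 0.384), with a 95% interval of -0.360 to 0.109, or 0.779 to 1.08 of the control level. The log2 ratio of TRIB3 to CHAC1, a pair chosen after their values were seen, was -0.82, -1.03 and -0.63 in control and 0.85, 0.72 and 0.65 in LOC550643 siRNA libraries. It was higher by 1.57 after LOC550643 siRNA. As the pair was chosen after the values were seen, this ratio describes the libraries and is not a test.

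SESN2 and DDIT4 both restrain the growth kinase complex mTORC1, SESN2 as a leucine sensor that acts through GATOR complexes and DDIT4 (REDD1) through TSC2. SESN2 (chromosome 1, 28585963 to 28609002, plus strand) stood at 210.7, 193.5 and 227.9 CPM in control and at 304.7, 291.8 and 266.0 CPM in LOC550643 siRNA libraries. All LOC550643 siRNA libraries were above all controls (1.36-fold, log2 0.45, SE 0.0819, limma adjusted p = 0.00152). DDIT4 (chromosome 10, 74033677 to 74035797, plus strand) stood at 322.1, 271.4 and 315.5 CPM in control and at 372.8, 396.6 and 365.2 CPM in LOC550643 siRNA libraries. Its groups were also apart, with the smallest rise of the 8 (1.25-fold, log2 0.32, SE 0.0817, 95% interval 0.144 to 0.502, limma adjusted p = 0.00985). Without LOC550643 siRNA replicate 2 it no longer passed (log2 0.29, limma adjusted p = 0.0502).

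**Figure D2:**
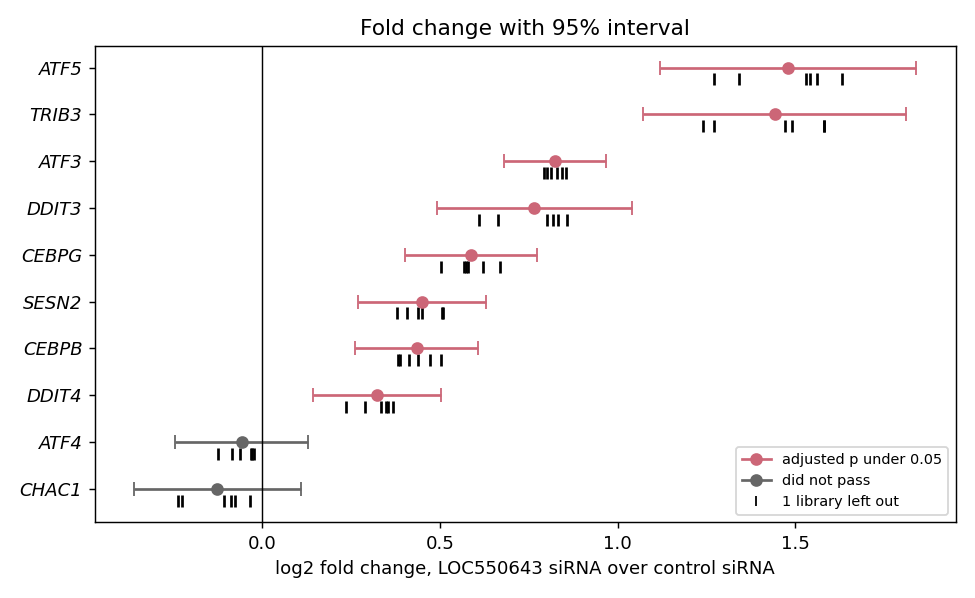
Log2 fold change of each gene, LOC550643 siRNA over control siRNA, with its 95% interval (points and bars, limma), and the value with each of the 6 libraries left out in turn (ticks). The intervals of the 8 genes that rose lie above 0, from DDIT4 at 0.32 to ATF5 at 1.48, and those of ATF4 and CHAC1 include 0.

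Divided by exon length, so that genes can be compared, levels lay closer together after LOC550643 siRNA in the middle of the order. In control libraries ATF4 came first at 596.0 ± 38.5 CPM per kilobase (SD, n = 3), then DDIT4 at 173.0 ± 15.8 and CHAC1 at 74.7 ± 7.62, with no overlap of libraries between neighbours. SESN2 (59.9 ± 4.89) and CEBPG (55.8 ± 6.15) overlapped, CEBPB followed at 45.3 ± 2.43, and then came ATF3 (40.6 ± 1.57), DDIT3 (37.5 ± 6.28) and TRIB3 (26.7 ± 5.85), of which DDIT3 overlapped both of the others' ranges. ATF5 was last at 11.0 ± 1.65 CPM per kilobase, with all its libraries below those of TRIB3. After LOC550643 siRNA ATF4 (573.0 ± 24.9) and DDIT4 (216.0 ± 9.38) were again first and ATF5 (31.1 ± 8.48) last, and the 7 genes between them ran from CEBPG at 83.6 to CEBPB at 61.3 CPM per kilobase, with overlapping libraries at each step from CEBPG down to CEBPB. In that group TRIB3 held 72.4 ± 15.9 and CHAC1 68.7 ± 9.93 CPM per kilobase.

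Among replicates, the same library was often the lowest or highest of its group across the 10 genes. Correlation of the genes within groups was not tested. Control replicate 2 was the lowest control library for all 10, by a median of -0.152 from the group mean on the log2 scale, while it was lowest for 39.8% of all genes tested and for 49.9% of the 5873 genes at or above 47.8 CPM. In the LOC550643 siRNA group replicate 3 was lowest for 8 of the 10 (38.6% of all genes tested) and replicate 1 highest for 6 (31.6%). Among the 5873 genes these shares were 36.8% and 26.9%. ATF5 and TRIB3 stood at 0.421 and 0.336 above the group mean in LOC550643 siRNA replicate 1. In control replicate 2 TRIB3, DDIT3 and ATF5 stood at -0.375, -0.290 and -0.258. ATF4 and ATF3 were lowest in LOC550643 siRNA replicate 1, in which the other factors and TRIB3 were not. Control replicate 2 is the library that stood apart from its group, and LOC550643 siRNA replicate 3 is the shallowest; the part of either in this pattern was not tested.

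**Figure D3:**
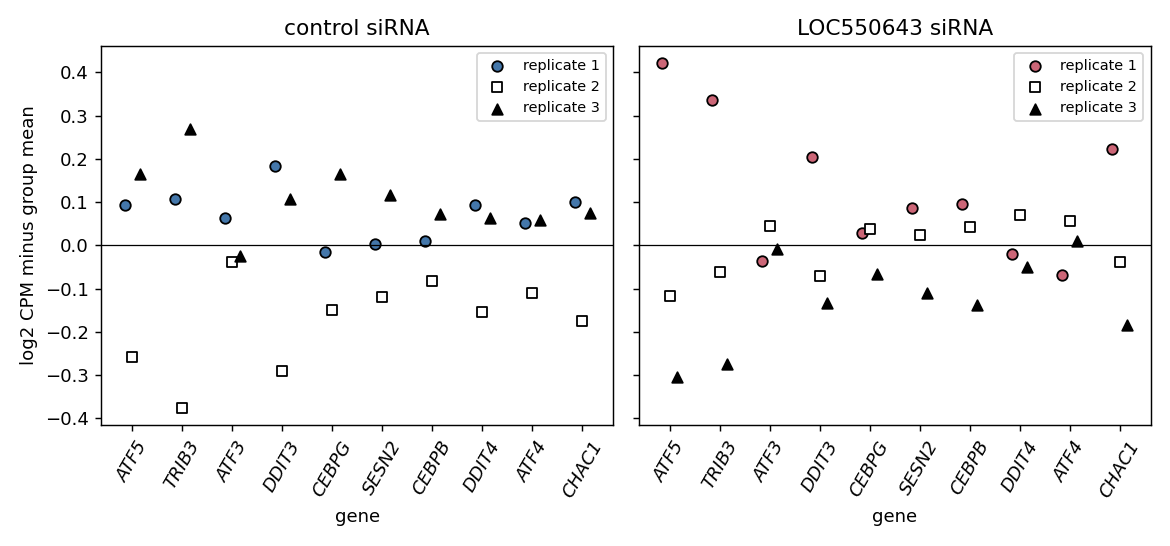
Log2 CPM of each library minus its group mean, for control (left) and LOC550643 siRNA libraries (right), with a marker for each replicate. Control replicate 2 is the lowest control for all 10 genes, and LOC550643 siRNA replicate 1 is far above the others for ATF5 and TRIB3.

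Left out in turn, no library turned a direction. Without control replicate 2 all 8 rises passed, with smaller values: ATF5 at log2 1.34, TRIB3 at 1.24, DDIT3 at 0.61, CEBPG at 0.50 and DDIT4 at 0.24, and a median over the 10 of 0.443. Without LOC550643 siRNA replicate 1, ATF5 stood at 1.27 and TRIB3 at 1.27, and without replicate 3 they stood at 1.63 and 1.58, all passing. CHAC1 ranged from -0.237 to -0.0339 and ATF4 from -0.123 to -0.0228, none of which passed. The authors' deposited table lists the same 8 as higher at an adjusted p under 0.05, of which ATF5 (log2 1.51) and TRIB3 (1.44) are past a log2 fold change of 1, the size the authors asked for.

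Over the 6 libraries, the 3 genes of at least 10 CPM whose log2 level followed that of ATF5 most closely among 11241 were the isoleucyl-tRNA synthetase IARS (Pearson r 0.99692), the folate carrier SLC19A1 (0.99678) and the haem enzyme FECH (0.99531). TRIB3 ranked 5 at 0.995, followed among the 10 by CEBPB (0.985), SESN2 (0.982) and DDIT3 (0.980). ATF4 stood at -0.364 and CHAC1 at -0.079. These values describe 6 libraries in 2 groups, and a difference between the groups alone makes them high.

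Other known targets of ATF4 were described by class, from lists also chosen with earlier results of these data known. For comparison, 17.5% of all genes tested rose and 18.2% fell. Among the 5873 genes at or above 47.8 CPM, 29.4% rose and 13.6% fell. Of 12 tRNA synthetases of the cytosol, 10 rose, 1 fell and 1, WARS, did not pass (median log2 0.372). LARS, YARS and AARS, for leucine, tyrosine and alanine, rose by 0.62, 0.59 and 0.47, and SARS, for serine, fell from 443.4 to 184.4 CPM (log2 -1.27). Of 14 enzymes of amino acid and one-carbon synthesis 9 rose and 5 did not pass (median 0.291), with the alanine transaminase GPT2 at 0.79, the serine enzyme PSAT1 at 0.55 and the transsulfuration enzymes CTH and CBS at 0.49 and 0.41.

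Of 10 amino acid transporters 2 rose and 1 fell (median -0.0146), near the shares of all genes tested (17.5% rose and 18.2% fell). The cystine carrier SLC7A11 rose by log2 0.55 and the glutamine carrier SLC1A5 by 0.22 (limma adjusted p = 0.0412 for SLC1A5). The leucine carrier SLC7A5 fell by 0.33 (limma adjusted p = 0.0151), and the glycine carrier SLC6A9 was at -0.20 and did not pass. Over the alternatives, 1 to 3 of the transporters rose and 0 to 3 fell. Of 20 other targets 15 rose and 1, the autophagy gene ATG5, fell (log2 -0.31; median 0.346). The mitochondrial protease LONP1 stood at log2 1.42 and the mitochondrial chaperone HSPA9 at 0.83, with the death receptor TNFRSF10B and the growth arrest gene GADD45A at 0.45 and 0.47. Beside these stand the 17.5% of all genes tested that rose and the 18.2% that fell. Among genes at or above 47.8 CPM, 29.4% rose and 13.6% fell.

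Of 15 tested genes that set eIF2 phosphorylation or act on eIF2, 4 rose and 1, EIF2B3, fell (log2 -0.25, limma adjusted p = 0.0402; list median 0.0645). Of the 5873 genes at or above 47.8 CPM 29.4% rose and 13.6% fell (17.5% and 18.2% of all genes tested), so the count of rises is near the background. Leaving out control replicate 1, or replicate 2 of the LOC550643 siRNA group, left 2 higher calls in the list. For falls, leaving out any 1 of control replicates 1 and 3 and LOC550643 siRNA replicates 2 and 3, the replicate block and no filter each gave 0 lower calls. PPP1R15A, the stress-induced subunit that directs a phosphatase to eIF2 and is itself a target of this pathway, rose by log2 0.69. EIF2S1, EIF2B2 and EIF2AK1, which encode a subunit of eIF2, a subunit of its exchange factor and the haem-regulated kinase, rose by 0.30, 0.26 and 0.27. The phosphorylation of eIF2 was not measured.

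**Figure D4:**
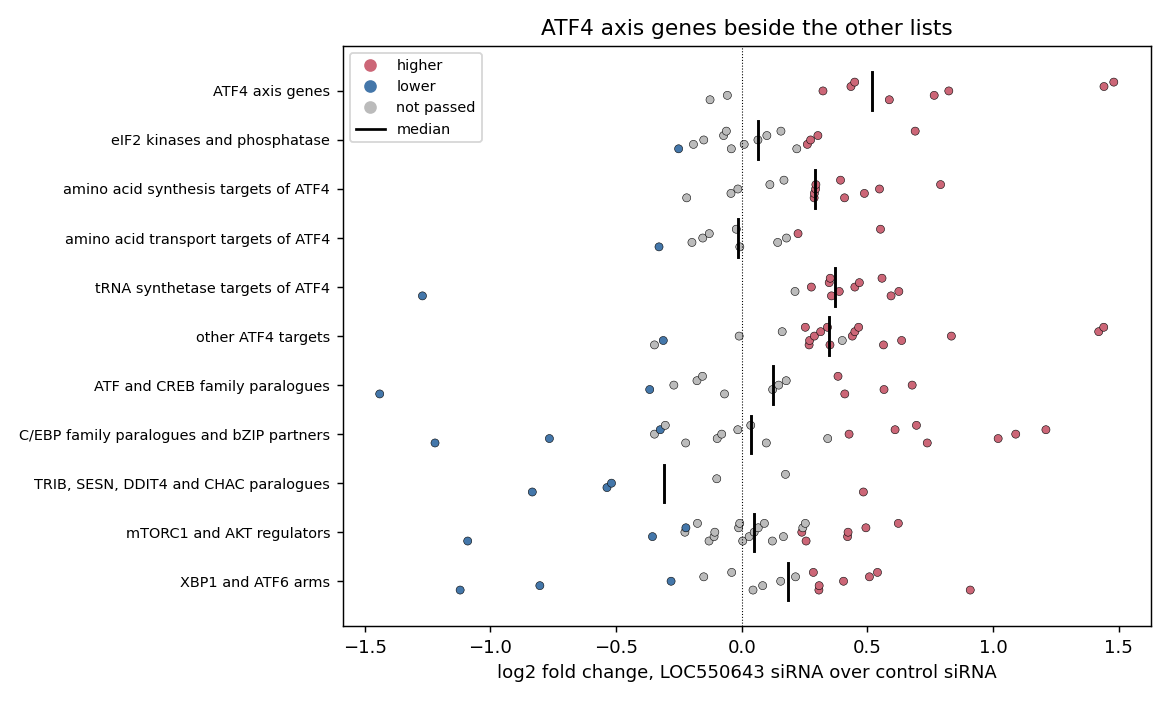
Log2 fold change of every tested gene of the ATF4 axis and of the 10 other lists; colour marks genes that rose, fell or did not pass (limma adjusted p under 0.05) and the black line the median. The ATF4 axis genes have a median of 0.518, the tRNA synthetases 0.372 with SARS far below 0, and the paralogues of TRIB3, SESN2, DDIT4 and CHAC1 -0.309.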

How the data were processed

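Poly-A selected dUTP libraries of 6 samples were sequenced as paired reads of 75 bases. Per the labels' protocols, reads were aligned to hg19 with STAR 2.4.0k, and per the file headers HOMER counted reads over exons with transcripts of a gene merged and no strand option, and edgeR (3.6.8 per the labels) compared the groups. The deposited per-library values are a signal, read counts that the authors scaled to a common total of about 29401180. In every library, low values were multiples of 1 step (100% within 0.1 step, up to 40 steps), read as 1 read end; the read pairs given rest on that reading. The log2 fold changes and adjusted p-values of the authors' comparison were set beside the values computed here.

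Values were TMM-scaled, and log2(value + 1 deposited unit, 0.034 CPM) was tested with limma 3.58.1 (two-sided, mean-trended empirical Bayes) over 16245 genes kept by edgeR's filter at 10 read pairs, with Benjamini-Hochberg adjustment. Fold changes on this scale understate those of low genes. Alternatives were other scalings, no filter, a pseudocount of 0.1, edgeR 4.0.16 and DESeq2 1.42.0 on recovered reads, a replicate block, each library left out, GC and length trends removed (values for 97.7% of genes), and an adjusted p of 0.01. The scripts were tested on simulated data.

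The members and lists were chosen with earlier results of these data known. Genes named are the 10, the siRNA target, genes overlapping them, the 3 most like ATF5, and up to 4 per list with the smallest p. The rule named only features overlapping ATF5, so those overlapping DDIT3 and CEBPB were added after their values were seen, as were the ratio of TRIB3 to CHAC1 and WARS, ATG5, EIF2B3, BATF3, ATF6, FOSL1, CEBPA, AKT2, TSC2 and HYOU1, which complete small counts. The labels give 3 replicates a group without saying whether these were independent cultures; p-values measure only how far these libraries spread, which may be technical. R 4.3.3 and Python 3.11.15 were used. Part of the leukocyte marker list is not reported here.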

Additional observations from a re-analysis of the deposited data

How the results depend on the processing

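Over 15 alternatives per gene, ATF3, ATF5, DDIT3, CEBPB, CEBPG, TRIB3 and SESN2 passed upward in all, and ATF4 and CHAC1 passed in none. DDIT4 lost its call without LOC550643 siRNA replicate 2, and its log2 fold change ran from 0.235 to 0.369 over the libraries left out. At an adjusted p of 0.01, 1770 genes rose and 1751 fell. With the replicate number as a block 2673 rose and 2717 fell, and no call among the 10 changed. Same-numbered libraries of both groups deviated from their group means with correlations of 0.0584, -0.283 and -0.12, so the numbers were not taken as pairs. With library totals alone 34.4% of genes called were higher, against 49.0%. Over all alternatives, the list counts that moved by over 1.5 times were these. Of the eIF2 genes 1 to 6 rose (main count 4) and 0 to 3 fell (1). Of the amino acid transporters 1 to 3 rose (2) and 0 to 3 fell (1). Among the ATF and CREB paralogues 1 to 4 fell (2), among the C/EBP relatives and partners 2 to 5 (3), among the synthesis enzymes 0 to 1 (0) and among the other targets 0 to 1 (1). Of the mTORC1 and AKT regulators 4 to 11 rose (6) and 2 to 5 fell (3), and of the TRIB, SESN, DDIT4 and CHAC paralogues 1 to 2 rose (1). The causes were not tested. A count of 0 allows up to 2.44 to 10.3 deposited units, for counting error only, far below any of the 10 genes.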

Other observations

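The nearest relatives of the effectors moved in both directions. Of 6 paralogues of TRIB3, SESN2, DDIT4 and CHAC1, 1 rose and 3 fell (median log2 -0.309), beside 17.5% of all genes tested that rose and 18.2% that fell. TRIB1 rose from 30.0, 29.8 and 32.1 CPM to 39.4, 45.2 and 44.1 CPM (log2 0.48, limma adjusted p = 0.000849), while TRIB2 fell by 0.54, DDIT4L by 0.83 and CHAC2, the constitutive glutathione-degrading enzyme, by 0.52.

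Of 13 ATF and CREB relatives 4 rose and 2 fell (median log2 0.123). Of all genes tested 17.5% rose and 18.2% fell, and of those at or above 47.8 CPM 29.4% rose and 13.6% fell. The counts of the relatives are near the latter shares. CREB3, a membrane-bound factor, rose by 0.68, ATF1 by 0.57, ATF7 by 0.41 and ATF6 by 0.38. BATF3 passed narrowly at -0.37 (limma adjusted p = 0.0469), and the list had 1 lower call with edgeR, DESeq2, the replicate block, no filter and each library but LOC550643 siRNA replicate 1 left out. The interferon-related BATF2 fell from 6.60, 6.92 and 7.21 CPM to 2.39, 2.83 and 2.38 CPM (log2 -1.44, limma adjusted p = 2.19e-05). Of 19 C/EBP relatives and leucine zipper partners 7 rose and 3 fell (median 0.0359), beside those same shares. JUN and NFE2L1, the factor of the proteasome recovery response, rose by 1.21 and 1.09 and DBP by 0.61, and TEF fell by 0.76, FOSL1 by 1.22 and CEBPA by 0.32.

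Of 25 mTORC1 and AKT regulators, the pathway that SESN2, DDIT4 and TRIB3 act on, 6 rose and 3 fell (median log2 0.0495), near the shares of all genes at or above 47.8 CPM (29.4% higher, 13.6% lower; 17.5% and 18.2% of all genes tested). Among them were AKT1 at 0.62, its substrate AKT1S1 at 0.49, SEC13 at 0.42 and GATSL3, an arginine sensor of this pathway, at -1.09. TSC2, through which DDIT4 acts, fell by 0.36 (limma adjusted p = 0.00734) and AKT2 by 0.22 (0.0475). Of 16 genes of the XBP1 and ATF6 arms of the unfolded protein response 7 rose and 3 fell (median 0.185), beside those same shares. CALR and HSPA5, both chaperones, stood at 0.91 and 0.51. EDEM1 and SEL1L, which serve degradation, fell by 1.12 and 0.80, and the chaperone HYOU1 by 0.28.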
